A study of Homo sapiens with 12 samples.

Results

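The polysome-bound RNA of H1299 cells was compared between cells depleted of EIF3G and control cells, gene by gene and pathway by pathway. TPM, the unit of the table, is the share of a gene's transcripts among all transcripts of a library. The comparison covers every gene that averaged 1 TPM or more over the 6 polysomal libraries, which were 9496 of the 16172 genes in the deposited table. The other 6676 genes, 828 of them listed at 0 in all 6 libraries, were set aside. H1299 is an established human non-small-cell lung cancer line. The cells of the siEIF3G group received an equimolar mix of 2 siRNAs against EIF3G, and those of the siCtrl group a control siRNA. Both were transfected with the same reagent, and the cells were lysed after 72 h. The lysate was spread on a sucrose gradient of 10% to 50%, the fraction with polysomes was collected, and its RNA was enriched on oligo(dT) beads and sequenced. Each group has 3 polysomal libraries, and 3 further libraries per siRNA were made from an input of 10% of the lysate. The labels do not say whether the libraries of a group come from separate cultures, so the p-values below reflect only how these libraries scatter, and that scatter may be technical. No genotype or drug differs between the groups, and the effects of the 2 siRNAs cannot be told apart because they were given together.

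A polysome is an mRNA that carries several translating ribosomes, and it travels deep into a sucrose gradient because of their mass. The share of an mRNA's copies found there is set by how often ribosomes start on it and how long they stay. eIF3 is the large initiation complex that holds the small ribosomal subunit and brings it together with the mRNA. Its subunit EIF3G has an RNA recognition motif and belongs to the mobile part of the complex near the mRNA entry side, which takes part in scanning for the start codon. The TPM values are shares of a library. A loss of polysomes that touched all mRNAs alike would leave them as they are, and in bulk RNA a difference in the share of cells in some state and a difference in RNA per cell cannot be told apart.

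The siRNAs define the groups, so their sense strands are given as in the labels, 5′ to 3′ and in DNA letters, with no part marked by capitals. The first and second were mixed against EIF3G, and the third was the control.
siEIF3G-4: gaacaaactcaagggccagaa
siEIF3G-5: gaggtcatcaacggaaacata
siCtrl: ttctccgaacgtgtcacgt
Both EIF3G siRNAs are 21 bases long, with 47.6% and 42.9% G or C, and the control is 19 bases long with 52.6%. Whether they match other mRNAs was not tested.

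The 6 polysomal libraries held 13787 to 14052 genes above 0, and gave 23.0% to 28.3% of their TPM to ribosomal protein mRNAs. Their depth is unknown. MTRNR2L2, a near copy of a mitochondrial ribosomal RNA gene, was at 5.41 to 13.1 TPM. The H1299 cells held mesenchymal VIM at 265 to 1909 TPM beside the epithelial keratins KRT18 at 765 to 1934 TPM and KRT8 at 110.4 to 429 TPM. The epithelial adhesion genes EPCAM and CDH1 were at most at 0.09 TPM, and the lung genes NKX2-1 and SFTPB at most at 0.31 TPM. Of 17 markers of blood, vessel, stromal and other cells, 11 were in the table, and their sum was 63.1 to 142 TPM with siCtrl and 88.3 to 122 TPM with siEIF3G, most of it CD68. A library that stood apart was siEIF3G polysomal 3. It had a size factor of 1.53, against 0.700 to 1.07 in the others, and correlated less across genes with its own group (mean r = 0.939 over genes, which are not independent) than with the siEIF3G input libraries (mean r = 0.948). On the siCtrl side, siCtrl polysomal 3 was the lowest library of its group for 59.2% of genes. Results are therefore also given without siEIF3G polysomal 3.

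EIF3G fell. Its mRNA was at 1679.9, 1916 and 1803 TPM in the siCtrl libraries and 143, 132 and 69.2 TPM in the siEIF3G libraries, so that 6.38% of the control mean remained. The groups were far apart (log2 change -4.02, SE 0.27, limma adjusted p = 0.000399). In input RNA the log2 change was -4.03, which checks the labels in both fractions. EIF3G was the only gene called among 9496 by limma at an adjusted p under 0.05: 0 genes (0%) were called higher and 1 (0.0105%) lower. With no adjustment, p was under 0.05 for 1634 higher genes (17.2%) and 324 lower genes (3.41%). The number of calls depended on the scaling and on siCtrl polysomal 1: with median-of-ratios size factors 63 genes (0.663%) were called higher and 43 (0.453%) lower, and without siCtrl polysomal 1 the calls were 33 higher and 3 lower. All genes below other than EIF3G are therefore given as values and not as called changes.

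With the values as deposited, most polysomal mRNAs were higher in share after knockdown, and the most abundant were not. Over all genes the median log2 change came to 0.35 and 69.9% of genes were positive, against a median of -0.03 in input RNA. In 2050 genes (21.6%) all 3 siEIF3G libraries lay above all 3 siCtrl libraries, and in 805 genes (8.48%) all 3 lay below. With a log2 change of at least 1 in size as well, 753 genes (7.93%) were higher and 42 (0.442%) lower. Because shares are relative, the balance of directions moved with the scaling. Size factors placed the median at -0.03 and gave 1185 genes (12.5%) higher and 1769 (18.6%) lower without overlap, so that 40.1% of them were higher in place of 71.8%. Quantile normalization gave 1069 (11.3%) and 1284 (13.5%), with a median of 0.01. List medians below are for this reason also given relative to the median of all genes. Without siEIF3G polysomal 3 the median was 0.23, and the groups, now of 3 and 2 libraries, did not overlap in 2464 genes (25.9%) higher and 980 (10.3%) lower; smaller groups overlap less often by construction.

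The lower end of the ranking began, after EIF3G, with THOP1 and ABHD17A. THOP1, thimet oligopeptidase, was at 212, 185 and 135 TPM in the siCtrl libraries and 42.4, 52.8 and 31.1 TPM in the siEIF3G libraries (log2 change -2.05, SE 0.28, limma adjusted p = 0.129, the smallest after EIF3G, and 2.29e-06 to 0.508 over the alternatives). THOP1 passed the threshold in 5 of 18 alternatives, among them size factors, quantile normalization, the fit of all 12 libraries and the fit without siCtrl polysomal 1 (adjusted p = 0.0486 by limma). The remaining one was the fit with the replicate number as a block, although replicate numbers did not pair the libraries. ABHD17A, an enzyme that removes palmitate from proteins such as NRAS, was at 65.7, 90.1 and 96.04 TPM in the siCtrl libraries and 26.6, 23.1 and 14.1 TPM in the siEIF3G libraries (log2 change -1.96, SE 0.31). In both genes every knockdown library was far below every control library, and siEIF3G polysomal 3 was the lowest. SPNS1, a lysosomal lipid transporter, was at 198, 226 and 207 TPM in the siCtrl libraries and 94.9, 92.4 and 58.4 TPM in the siEIF3G libraries (log2 change -1.38, SE 0.25). HRAS, a small GTPase of growth factor signalling, was at 147, 168 and 184 TPM in the siCtrl libraries and 76.8, 73.2 and 60.2 TPM in the siEIF3G libraries (log2 change -1.24, SE 0.23). AKR1A1, an aldehyde reductase, was at 191, 173 and 152 TPM in the siCtrl libraries and 78.4, 79.3 and 69.5 TPM in the siEIF3G libraries (log2 change -1.17, SE 0.22). These 3 mRNAs had no overlap. HRAS and AKR1A1 were tight within both groups, while SPNS1 was lower in siEIF3G polysomal 3 than in the other knockdown libraries.

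Other low-ranked genes belong to the cell cycle and chromatin. UBE2C, the ubiquitin-conjugating enzyme of the anaphase-promoting complex, was at 817, 929 and 1159 TPM in the siCtrl libraries and 562, 536 and 411 TPM in the siEIF3G libraries (log2 change -0.94, SE 0.21). H2AX, the histone variant phosphorylated at DNA breaks, was at 471, 572 and 602 TPM in the siCtrl libraries and 312, 287 and 185 TPM in the siEIF3G libraries (log2 change -1.10, SE 0.24). CDKN2D, an inhibitor of CDK4 and CDK6, was at 62.9, 73.4 and 81.2 TPM in the siCtrl libraries and 36.9, 33.9 and 29.9 TPM in the siEIF3G libraries (log2 change -1.09, SE 0.25). Their groups did not overlap, and siEIF3G polysomal 3 was again the lowest library in each. MXD3, a transcription factor of the MAX network, was at 59.9 to 79.4 TPM with siCtrl and 27.4 to 33.9 TPM with siEIF3G (-1.16, SE 0.25). CALB2, the calcium-binding protein calretinin, was at 61.4 to 75.3 TPM with siCtrl and 25.4 to 31.1 TPM with siEIF3G (-1.24, SE 0.25), and SYDE1, a GTPase-activating protein, at 68.9 to 83.4 TPM with siCtrl and 17.6 to 38.03 TPM with siEIF3G (-1.38, SE 0.33). The limma adjusted p was 0.227 for each of the 10 genes ranked after THOP1 at the lower end.

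The upper end held structural, signalling and folding genes, with more spread. IFRD1, a transcriptional co-regulator, was at 3.05, 5.13 and 2.52 TPM in the siCtrl libraries and 16.6, 16.1 and 48.4 TPM in the siEIF3G libraries (log2 change 2.47, SE 0.46). APP, the amyloid precursor protein, was at 7.87, 8.78 and 2.84 TPM in the siCtrl libraries and 34.8, 22.9 and 54.5 TPM in the siEIF3G libraries (log2 change 2.39, SE 0.45). CTNNB1, which encodes beta-catenin of cell junctions and WNT signalling, was at 8.15, 4.68 and 2.41 TPM in the siCtrl libraries and 20.1, 21.5 and 35.7 TPM in the siEIF3G libraries (log2 change 2.21, SE 0.42). In all 3 the highest value was that of siEIF3G polysomal 3, and the other 2 knockdown libraries also lay above every control library. ITGB1, the beta-1 integrin, was at 39.9, 47.8 and 13.9 TPM in the siCtrl libraries and 98.2, 134 and 229.9 TPM in the siEIF3G libraries (log2 change 2.23, SE 0.46). DDX1, an RNA helicase, was at 11.5, 11.8 and 3.50 TPM in the siCtrl libraries and 30.7, 40.7 and 77.05 TPM in the siEIF3G libraries (log2 change 2.39, SE 0.48). XRCC5, the larger Ku subunit of DNA end joining, was at 33.9, 31.9 and 10.6 TPM in the siCtrl libraries and 69.1, 90.2 and 159.8 TPM in the siEIF3G libraries (log2 change 2.09, SE 0.46). siCtrl polysomal 3 was the lowest library for all 6 of these genes. ACTN4, an actin cross-linker, was at 26.6, 11.3 and 6.36 TPM in the siCtrl libraries and 54.03, 58.5 and 45.4 TPM in the siEIF3G libraries (log2 change 1.97, SE 0.44), and there siEIF3G polysomal 3 was the lowest of the knockdown libraries. DUSP5, a phosphatase of nuclear ERK, was at 20.9, 15.2 and 16.02 TPM in the siCtrl libraries and 38.8, 48.6 and 43.7 TPM in the siEIF3G libraries (log2 change 1.29, SE 0.27), the smallest SE of the higher genes. The limma adjusted p was 0.227 for all 12 genes ranked at the upper end. The remaining 4, EIF3C, EEF1A1, HSP90AB1 and UTP4, are given with their pathways.

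**Figure D1:**
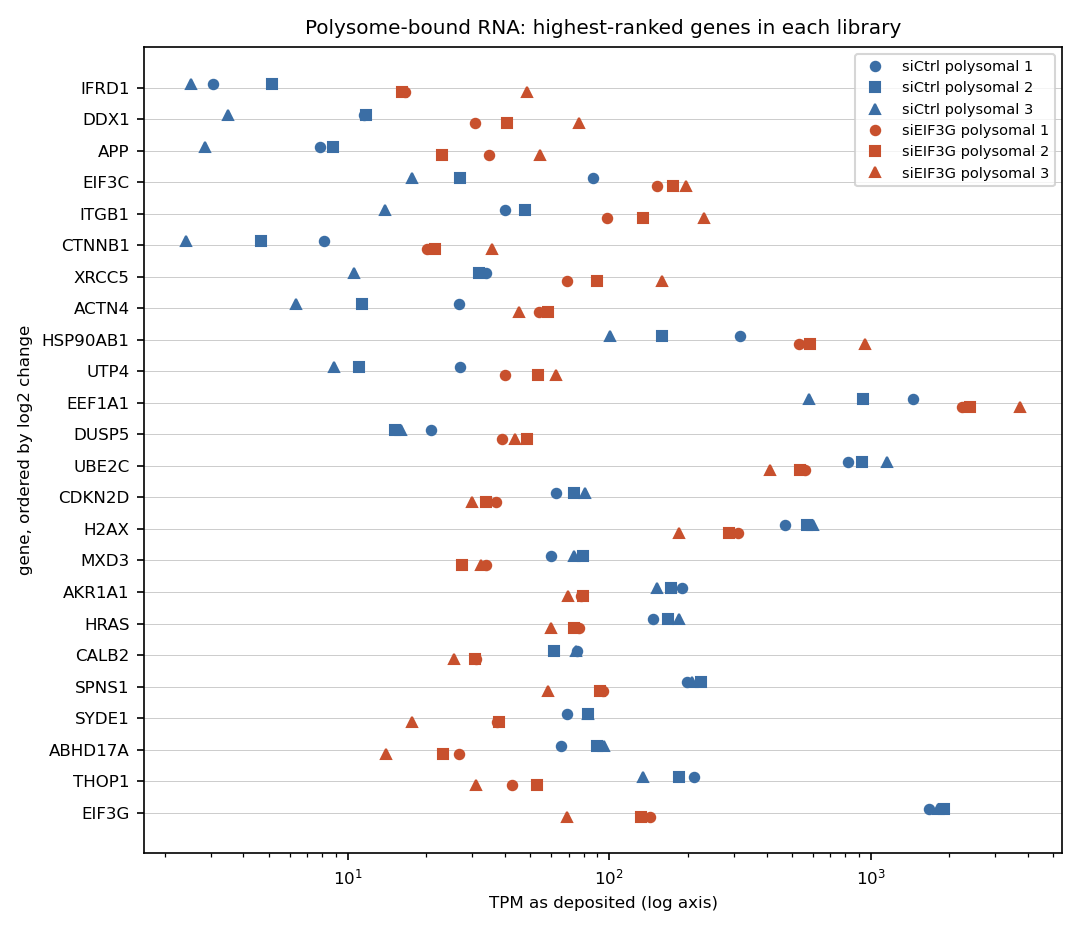
TPM as deposited (log axis) of the 12 highest-ranked genes in each direction, EIF3G included, with 1 symbol for each of the 6 polysomal libraries. No gene shows an overlap of the siCtrl (blue) and siEIF3G (orange) libraries; EIF3G lies at 1680 to 1916 TPM with siCtrl and 69.2 to 143 TPM with siEIF3G, and siEIF3G polysomal 3 (orange triangle) is the highest of its group for many of the higher genes.

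The ranked lower genes were also negative in the lysate, and most ranked higher genes had smaller values there, with wide errors. All 11 lower genes other than EIF3G had a negative log2 change in input RNA, and 9 of them a smaller one than in polysomal RNA. In input RNA the log2 change was -2.04 for THOP1, -2.17 for ABHD17A, -1.26 for HRAS and -1.04 for AKR1A1, close to their polysomal values. It was smaller for SYDE1 at -0.88, SPNS1 at -0.96, H2AX at -0.68 and CDKN2D at -0.73, and UBE2C had -0.21 in input and -0.94 in polysomal RNA. The input groups of CDKN2D and UBE2C overlapped. Of the higher genes, CTNNB1 was at 0.14 (SE 0.65) in input RNA, XRCC5 at 0.08 (SE 0.68), ITGB1 at 0.29 (SE 0.70) and APP at 0.36 (SE 0.67), where their polysomal log2 changes were 2.09 to 2.39. DUSP5 had 1.32 in input and 1.29 in polysomal RNA, and IFRD1 1.40 and 2.47. A pair of input libraries stood apart in these genes. siCtrl input 1 was the lowest of its group for all 12 ranked higher genes and siEIF3G input 2 for 11 of them, as in CTNNB1 with 11.8, 55.1 and 76.9 TPM in the siCtrl and 51.3, 19.5 and 68.5 TPM in the siEIF3G input libraries. Without these 2 libraries the input log2 changes of the 12 genes were -0.13 to 1.36. The difference between the effects was 2.07 (SE 0.92) for CTNNB1, -0.73 (SE 0.33) for UBE2C and -0.02 (SE 0.39) for THOP1. In limma's interaction test over all 12 libraries, 0 of 9496 genes (0%) passed an adjusted p of 0.05 and 15 (0.158%) had an unadjusted p under 0.05, so that no gene was shown to differ between the fractions. In input RNA limma called 2 genes (0.0211%), EIF3G and THOP1. Without overlap between the groups, 199 genes (2.10%) were higher and 188 (1.98%) lower in input RNA.

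**Figure D2:**
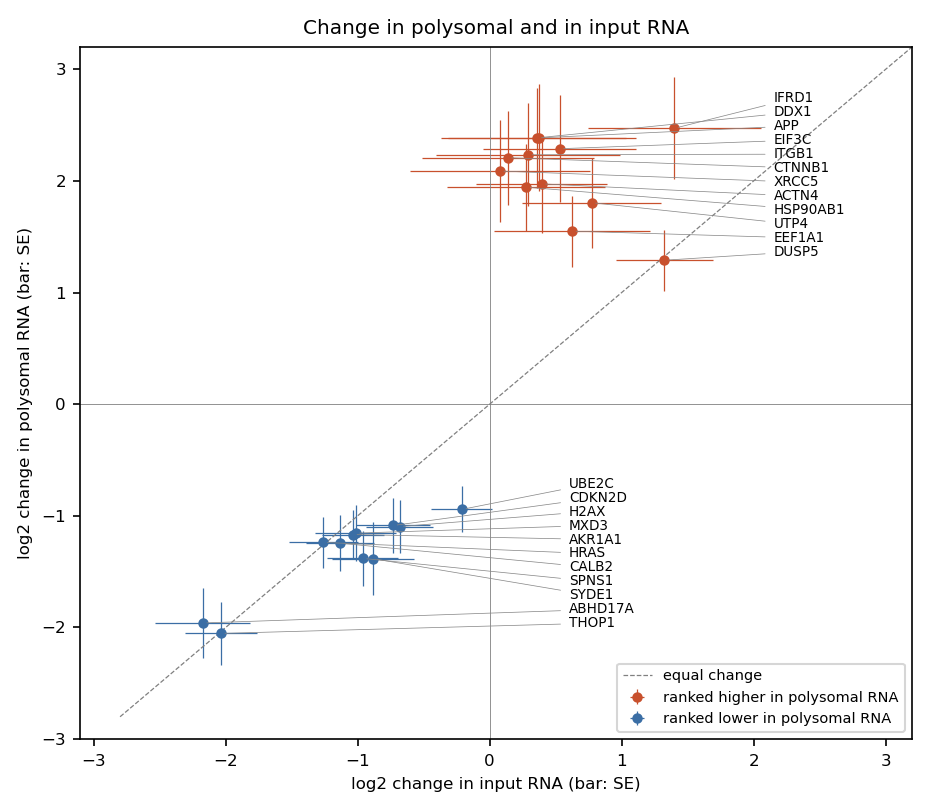
The log2 change (siEIF3G minus siCtrl, bars are SE) in polysomal RNA on the vertical axis against that in input RNA on the horizontal axis, for the ranked genes other than EIF3G. Some lower genes (blue) lie near the dashed line of equal change, as THOP1 at -2.05 and -2.04, and others below it, as UBE2C at -0.94 and -0.21, while most higher genes (orange) lie above it, as CTNNB1 at 2.21 and 0.14.

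The pathways were followed with 49 gene lists, of which 47 had at least 5 members tested. EIF3G is in none of them, and no list had a called member. Read against the median of all genes, 31 lists lay above and 16 below. Over 18 alternative settings, 24 lists stayed above and 7 below in every one, and 16 took both signs. The lists that stayed above included the aminoacyl-tRNA synthetases, chaperones, ribosome biogenesis factors, nuclear pore and matrix genes. Those that stayed below included complex I subunits, histones, selenoproteins and the BCL2 family. The size of these medians depended on single libraries: leaving out 1 library moved the relative median by over 1.5 times or to the other sign in 41 of the 47 lists. The 6 exceptions were the cytosolic synthetases, immediate early genes, nuclear pore genes, eIF3 subunits, polyamine genes and vesicle coats. A count of members without overlap is to be read against the 21.6% higher and 8.48% lower of all genes.

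**Figure D3:**
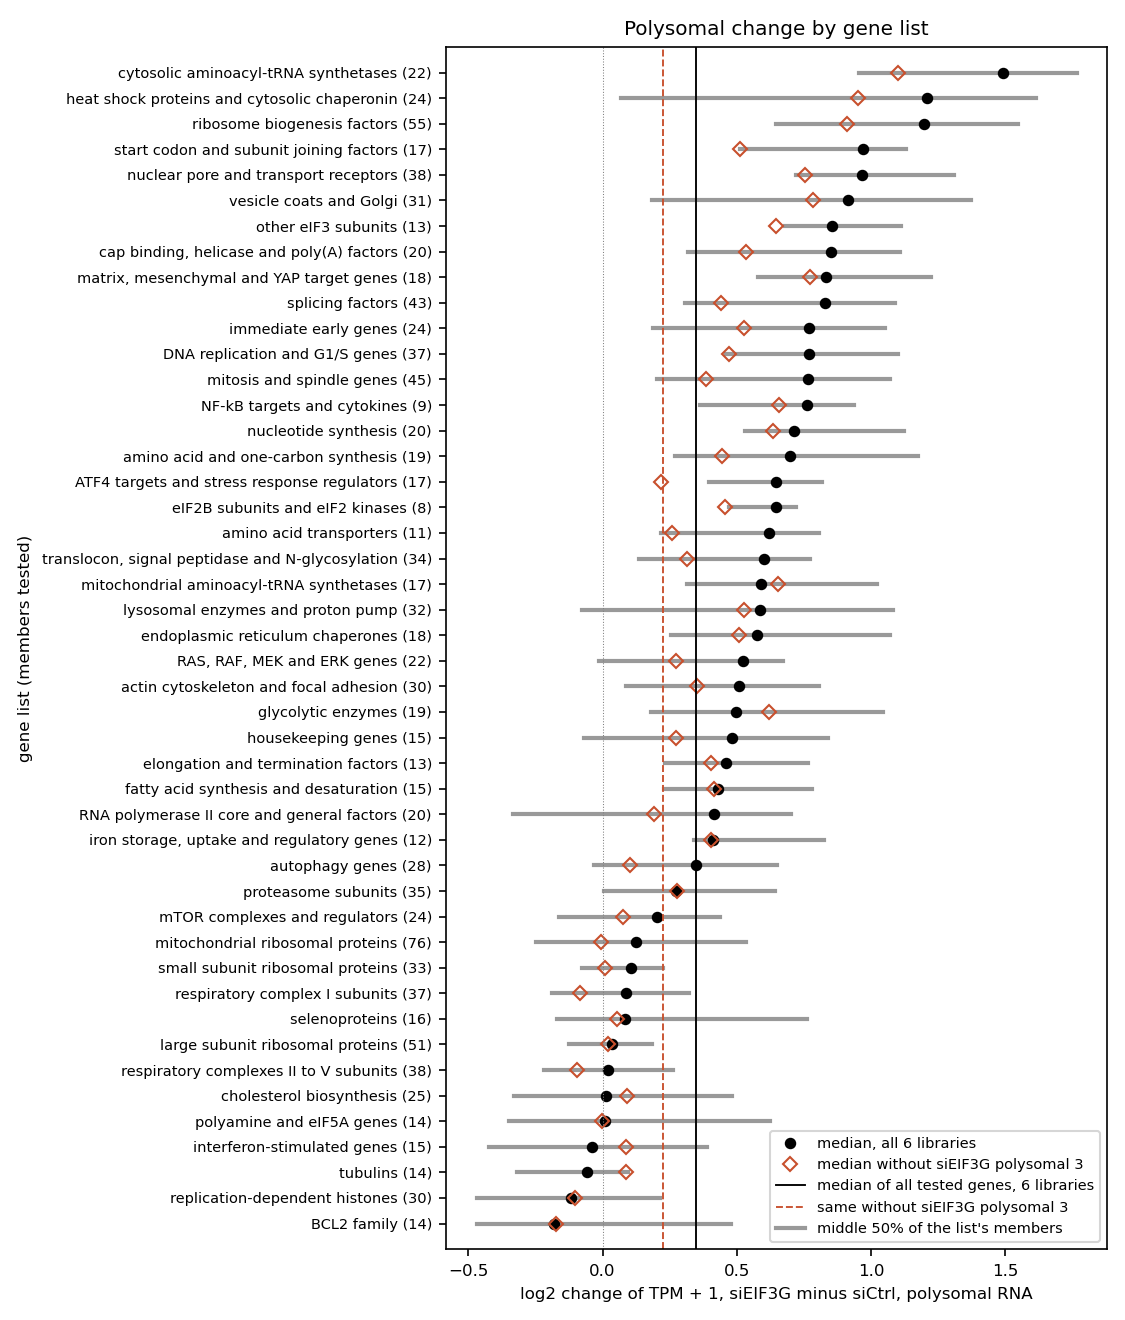
Median log2 change of TPM + 1 (siEIF3G minus siCtrl, polysomal RNA) for the gene lists with at least 5 tested members, except 1 that is not reported here, with grey bars for the middle 50% of members and diamonds for the medians without siEIF3G polysomal 3. The vertical lines mark the medians of all genes, 0.35 with all 6 libraries and 0.23 without that library; the synthetases lie highest at 1.49 and the BCL2 family lowest at -0.18.

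Among initiation factors, the subunits that work with EIF3G in eIF3 were for the most part higher in share. The 13 other eIF3 genes had a median log2 change of 0.85, which is 0.51 relative to all genes and 0.42 without siEIF3G polysomal 3. EIF3C, a core subunit whose reads may be shared with its near copy EIF3CL, was at 86.8, 26.96 and 17.7 TPM in the siCtrl libraries and 152, 176 and 197 TPM in the siEIF3G libraries (log2 change 2.29, SE 0.48). EIF3A, the scaffold of the complex, was at 1.64 to 5.21 TPM with siCtrl and 5.77 to 24.4 TPM with siEIF3G (1.47, SE 0.53), and EIF3D, a cap-binding subunit, at 29.5 to 159 TPM with siCtrl and 149 to 229 TPM with siEIF3G (1.63, SE 0.51). In EIF3D siCtrl polysomal 1 reached the knockdown level and the groups overlapped. Of the 13, 10 were positive, beside 69.9% of all genes, and 3 were higher without overlap and 0 lower, near the share in all genes. The summed TPM overlapped, at 2467 to 3453 with siCtrl and 3182 to 3608 with siEIF3G.

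The factors that bind the cap, unwind the mRNA or join the subunits showed the same direction. The 20 cap, helicase and poly(A) factors had a median log2 change of 0.85, which is 0.50 relative to all genes and 0.31 without siEIF3G polysomal 3. EIF4A2, a helicase of the cap-binding complex, was at 16.1, 18.8 and 10.7 TPM in the siCtrl libraries and 36.2, 35.7 and 52.9 TPM in the siEIF3G libraries (log2 change 1.41, SE 0.32), EIF4B, its cofactor, at 12.3 to 27.3 TPM with siCtrl and 48.1 to 82.7 TPM with siEIF3G (1.45, SE 0.37), and DDX3X, a helicase for structured leaders, at 5.38 to 19.9 TPM with siCtrl and 31.6 to 61.8 TPM with siEIF3G (1.71, SE 0.47). All 3 had no overlap. The 17 factors of start codon choice and subunit joining had a median log2 change of 0.97, which is 0.62 relative to all genes and 0.29 without siEIF3G polysomal 3. 8 of these 17 lay higher without overlap and 0 lower. EIF5, which triggers GTP hydrolysis by eIF2, was at 10.2 to 22.7 TPM with siCtrl and 30.5 to 89.3 TPM with siEIF3G (1.58, SE 0.44), EIF1, the gatekeeper of start codon choice, at 103 to 114 TPM with siCtrl and 145 to 377 TPM with siEIF3G (0.97, SE 0.33), and ABCE1, which splits ribosomes after termination, at 2.49 to 10.2 TPM with siCtrl and 11.8 to 28.8 TPM with siEIF3G (1.48, SE 0.48). In EIF1 and EIF5 siEIF3G polysomal 3 stood well above the other knockdown libraries. The 8 tested genes of eIF2B, the exchange factor of eIF2, and of the eIF2 kinases had a relative median of 0.30, or 0.07 without siCtrl polysomal 3, and 0 members without overlap.

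Elongation factors were higher in sum, mainly through EEF1A1 and EEF2, and no member was called. The summed TPM of the 15 elongation and termination factors in the table, 13 of them tested, was 14277, 12360.1 and 12174 with siCtrl and 15582, 17187 and 14924 with siEIF3G, with no overlap. EEF1A1, which carries aminoacyl-tRNA to the ribosome, was at 1458, 939 and 583 TPM in the siCtrl libraries and 2247, 2394 and 3737 TPM in the siEIF3G libraries (log2 change 1.55, SE 0.32). EEF2, the translocase, was at 2491, 1910.1 and 1847 TPM in the siCtrl libraries and 3349, 4899 and 2627 TPM in the siEIF3G libraries (log2 change 0.76, SE 0.23), and EEF1B2, an exchange factor for EEF1A, at 451 to 477 TPM with siCtrl and 590.5 to 837 TPM with siEIF3G (0.56, SE 0.19). These 3 mRNAs are known to start with a terminal oligopyrimidine tract, as those of ribosomal proteins do. The groups of EEF1A1 were the farthest apart. 6 members were higher without overlap and 0 lower. The list had a median log2 change of 0.46, which is 0.11 relative to all genes and 0.18 without siEIF3G polysomal 3. Its relative median was -0.009 without siCtrl polysomal 2 and 0.03 without siCtrl polysomal 3, so the sign varied with the library left out.

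Ribosomal protein mRNAs took about the same share of the polysomal RNA in both groups. The 33 small subunit genes summed to 117058, 135016 and 146226 TPM with siCtrl and 140566, 127993 and 146229 TPM with siEIF3G, and the 51 large subunit genes to 112468, 132458 and 137114 and 134297, 129326 and 129940.1 TPM. Both sums overlapped between the groups. Their median log2 changes were 0.11 and 0.04, or -0.24 and -0.31 relative to all genes as deposited and 0.10 and 0.04 with quantile normalization, so that the sign of the relative value depended on the scaling. Single members stood out at the upper side. RPS6, the S6 kinase substrate, was at 625, 618 and 551 TPM in the siCtrl libraries and 958, 955 and 1428 TPM in the siEIF3G libraries (log2 change 0.87, SE 0.20), RPL5, which binds a small rRNA, at 356 to 573 TPM with siCtrl and 767 to 1685 TPM with siEIF3G (1.18, SE 0.30), and RPS4X at 586 to 851 TPM with siCtrl and 940.3 to 1118 TPM with siEIF3G (0.59, SE 0.19). RPL12 was at 1556 to 1779.9 TPM with siCtrl and 2105 to 2374 TPM with siEIF3G (0.42, SE 0.15), and turned negative with size factors, at -0.050. Ribosomal protein genes have many processed pseudogenes, so reads may be divided among copies.

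The genes that build ribosomes were higher. Of 55 ribosome biogenesis factors, 33 lay higher without overlap and 2 lower, and 36 and 2 did so without siEIF3G polysomal 3. They had a median log2 change of 1.20, which is 0.85 relative to all genes, 0.68 without siEIF3G polysomal 3 and 0.56 without siCtrl polysomal 3. The summed TPM of the 56 listed genes was 7435, 6588 and 5454 with siCtrl and 7919, 8786 and 9371 with siEIF3G, with no overlap. UTP4, of the small subunit processome, was at 26.98, 11.1 and 8.90 TPM in the siCtrl libraries and 40.1, 53.6 and 62.7 TPM in the siEIF3G libraries (log2 change 1.81, SE 0.40). UTP14A, of the same particle, was at 1.35 to 3.58 TPM with siCtrl and 7.97 to 14.4 TPM with siEIF3G (1.76, SE 0.37), and WDR75, needed for pre-rRNA transcription, at 0.97 to 3.51 TPM with siCtrl and 5.88 to 15.1 TPM with siEIF3G (1.83, SE 0.43). In input RNA the list had a median of 0.21.

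Aminoacyl-tRNA synthetases, the enzymes that load tRNAs with amino acids, had the highest median of the lists. All 22 tested cytosolic members were positive, 13 were higher without overlap and 0 lower, with a median log2 change of 1.49, which is 1.14 relative to all genes and 0.88 without siEIF3G polysomal 3. AARS1, the alanine enzyme, was at 44.9, 14.3 and 10.9 TPM in the siCtrl libraries and 46.98, 111 and 143 TPM in the siEIF3G libraries (log2 change 2.18, SE 0.54), with little distance between siCtrl polysomal 1 and siEIF3G polysomal 1. TARS1, the threonine enzyme, was at 13.1, 14.7 and 3.63 TPM in the siCtrl libraries and 28.8, 33.2 and 107 TPM in the siEIF3G libraries (log2 change 2.25, SE 0.58), and RARS1, the arginine enzyme, at 11.9 to 31.4 TPM with siCtrl and 46.96 to 98.6 TPM with siEIF3G (1.53, SE 0.41). The sum of the list overlapped between the groups, at 2357, 1364 and 939 TPM with siCtrl and 2169, 2849.9 and 2915 TPM with siEIF3G, because siCtrl polysomal 1 was above siEIF3G polysomal 1. In input RNA the median was 0.32. The 17 mitochondrial synthetases had a smaller relative median of 0.24, and 8 of them were higher without overlap, among them IARS2, at 1.77 to 5.83 TPM with siCtrl and 8.55 to 20.2 TPM with siEIF3G (1.47, SE 0.45), and HARS2, at 3.58 to 16.7 TPM with siCtrl and 16.7 to 21.1 TPM with siEIF3G (1.31, SE 0.47).

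Genes of the integrated stress response, which shortage of amino acids or stress in the endoplasmic reticulum turns on through ATF4, depended on siEIF3G polysomal 3. DDIT3, the transcription factor CHOP, was at 14.6, 14.6 and 15.9 TPM in the siCtrl libraries and 29.5, 35.2 and 117 TPM in the siEIF3G libraries (log2 change 1.66, SE 0.46). SESN2, a leucine sensor, was at 21.3 to 24.7 TPM with siCtrl and 26.4 to 66.2 TPM with siEIF3G (0.71, SE 0.36), and SQSTM1, an autophagy receptor, at 529 to 1485 TPM with siCtrl and 1228 to 1872 TPM with siEIF3G (0.82, SE 0.34), with overlap. The 17 members had a median log2 change of 0.65, which is 0.30 relative to all genes and -0.01 without siEIF3G polysomal 3. Amino acid and one-carbon enzymes had a relative median of 0.35, and 0.22 without that library. MTHFD1, a folate enzyme, was at 15.2, 6.70 and 3.76 TPM in the siCtrl libraries and 26.6, 27.2 and 60.5 TPM in the siEIF3G libraries (log2 change 2.11, SE 0.49), and ALDH18A1, of proline synthesis, at 1.80 to 4.64 TPM with siCtrl and 7.47 to 8.34 TPM with siEIF3G (1.25, SE 0.35). Of the amino acid transporters, SLC38A2 was at 6.36 to 15.6 TPM with siCtrl and 22.98 to 51.4 TPM with siEIF3G (1.52, SE 0.41) and SLC3A2, the common chain of several exchangers, at 137 to 291 TPM with siCtrl and 296 to 381 TPM with siEIF3G (0.85, SE 0.28). SLC1A5, a glutamine carrier, was at 70.97 to 128 TPM with siCtrl and 117 to 174 TPM with siEIF3G (0.62, SE 0.28), with overlap.

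Early response genes were higher in both fractions. EGR1, a transcription factor induced by growth factors and stress, was at 0.65, 1.33 and 0.87 TPM in the siCtrl libraries and 7.14, 5.24 and 18.3 TPM in the siEIF3G libraries (log2 change 2.36, SE 0.43), and its input log2 change was 2.44. IER2, another early gene, was at 291, 342 and 315 TPM in the siCtrl libraries and 638, 641 and 439 TPM in the siEIF3G libraries (log2 change 0.84, SE 0.21), with 0.97 in input RNA. Their limma adjusted p was 0.227. The 29 immediate early genes in the table summed to 1085, 1124 and 1157 TPM with siCtrl and 1644, 1699 and 1354 TPM with siEIF3G, with no overlap. The 24 tested ones had medians of 0.77 in polysomal and 0.48 in input RNA. 9 of them were higher without overlap and 2 lower. The 9 tested NF-kB targets and cytokines were all positive, with a relative median of 0.41, or 0.18 without siEIF3G polysomal 2. NFKB1 was at 1.18 to 3.13 TPM with siCtrl and 3.70 to 14.2 TPM with siEIF3G (1.42, SE 0.46), NFKBIA, the inhibitor of NF-kB, at 11.02 to 17.5 TPM with siCtrl and 18.9 to 25.4 TPM with siEIF3G (0.76, SE 0.31), and NFKB2 at 49.1 to 114 TPM with siCtrl and 101 to 225 TPM with siEIF3G (0.98, SE 0.37), with overlap. Interferon-stimulated genes were lower in sum, at 869, 951 and 1084 TPM with siCtrl and 834, 737 and 589.8 TPM with siEIF3G. The 15 tested ones, 6 positive and 9 negative, had a median log2 change of -0.04, which is -0.39 relative to all genes. Without siEIF3G polysomal 3 these values were 0.09 and -0.14. ISG15, a ubiquitin-like modifier, was at 244 to 317 TPM with siCtrl and 160.4 to 229 TPM with siEIF3G (-0.57, SE 0.22), IFI6 at 105 to 132 TPM with siCtrl and 62.8 to 83.99 TPM with siEIF3G (-0.70, SE 0.23) and IFITM2 at 62.1 to 91.2 TPM with siCtrl and 36.6 to 51.6 TPM with siEIF3G (-0.66, SE 0.27). ISG15, IFI6 and IFITM2 were the 3 of 15 tested members lower without overlap, and 2 others were higher.

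Heat shock and chaperonin genes had a high median, and chaperones of the endoplasmic reticulum were divided. The 24 heat shock and chaperonin genes had a median log2 change of 1.21, which is 0.86 relative to all genes, 0.73 without siEIF3G polysomal 3 and 0.54 without siCtrl polysomal 3, with 12 higher and 2 lower without overlap. HSP90AB1, the constitutive HSP90, was at 318, 160.1 and 101 TPM in the siCtrl libraries and 532, 585 and 952 TPM in the siEIF3G libraries (log2 change 1.94, SE 0.39). HSPD1, the mitochondrial chaperonin, was at 126, 134 and 46.5 TPM in the siCtrl libraries and 242, 324 and 597 TPM in the siEIF3G libraries (log2 change 1.95, SE 0.44), and CCT2, of the cytosolic chaperonin, at 26.2 to 101 TPM with siCtrl and 141 to 305 TPM with siEIF3G (1.88, SE 0.46). Their input log2 changes were 0.28, 0.09 and 0.22. The summed TPM of the heat shock and chaperonin list overlapped, at 5331 to 7477 with siCtrl and 6385 to 8852 with siEIF3G. Of the 18 endoplasmic reticulum chaperones, 4 were higher without overlap and 3 lower. HSPA5, known as BiP, was at 8.84, 10.01 and 4.70 TPM in the siCtrl libraries and 27.2, 21.6 and 77.5 TPM in the siEIF3G libraries (log2 change 2.12, SE 0.48), with the highest value by far in siEIF3G polysomal 3. HSP90B1 was at 4.30 to 15.3 TPM with siCtrl and 27.1 to 59.8 TPM with siEIF3G (1.98, SE 0.46) and CANX, calnexin, at 4.38 to 18.2 TPM with siCtrl and 35.7 to 56.7 TPM with siEIF3G (1.95, SE 0.47).

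Protein entry and turnover showed both directions. STT3A, a catalytic subunit of N-glycosylation, was at 3.98 to 23.2 TPM with siCtrl and 26.7 to 41.4 TPM with siEIF3G (1.71, SE 0.53), RPN2, of the same enzyme, at 14.7 to 49.1 TPM with siCtrl and 52.7 to 82.8 TPM with siEIF3G (1.25, SE 0.41), and SRP54, of the signal recognition particle, at 1.75 to 7.98 TPM with siCtrl and 10.3 to 25.1 TPM with siEIF3G (1.48, SE 0.51). 12 of 34 genes of translocation and glycosylation were higher without overlap and 1 lower, while their sums were nearly level, at 4505, 4329 and 4254 and 4528, 4539.7 and 4479 TPM. PSMD1 and PSMD14, of the proteasome's regulatory cap, were at 2.89 to 9.43 TPM with siCtrl and 16.6 to 40.5 TPM with siEIF3G (1.71, SE 0.48) and 33.03 to 77.8 TPM with siCtrl and 89.1 to 182 TPM with siEIF3G (1.10, SE 0.37). PSMB3, of its core, was at 1765 to 1942 TPM with siCtrl and 1053 to 1511 TPM with siEIF3G (-0.52, SE 0.18). The 35 proteasome genes had a relative median of -0.08, whose sign varied with the settings.

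Mitochondrial genes for energy and protein synthesis lay at or below the median of all genes. Relative medians were -0.26 for 37 complex I subunits, -0.33 for 38 subunits of complexes II to V and -0.22 for 76 mitochondrial ribosomal proteins, with 0.06 for complexes II to V with quantile normalization. UQCRC2, of complex III, was at 10.6 to 35.5 TPM with siCtrl and 50.02 to 94.8 TPM with siEIF3G (1.65, SE 0.43), SDHB, of complex II, at 85.2 to 118 TPM with siCtrl and 146 to 211 TPM with siEIF3G (0.84, SE 0.24), and ATP5F1A, of ATP synthase, at 50.9 to 299 TPM with siCtrl and 302 to 396 TPM with siEIF3G (1.71, SE 0.52), so that the members with the smallest p were higher. NDUFB5, of complex I, was at 10.4 to 13.4 TPM with siCtrl and 16.8 to 28.02 TPM with siEIF3G (0.75, SE 0.32), and NDUFA9 and NDUFA10, of the same complex, had overlapping groups. MRPS12, a mitochondrial ribosomal protein, was at 748 to 1029 TPM with siCtrl and 537 to 616 TPM with siEIF3G (-0.66, SE 0.19). MRPS27 and MRPL58, on the same ribosome, were at 14.8 to 42.2 TPM with siCtrl and 48.8 to 59.6 TPM with siEIF3G (1.14, SE 0.37) and 22.1 to 27.6 TPM with siCtrl and 37.1 to 57.2 TPM with siEIF3G (0.85, SE 0.28). 20 members of that list were higher without overlap and 11 lower, both above the shares of all genes.

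Metabolic enzymes were mixed. Of 19 tested glycolytic genes, 17 were positive and 2 negative, and 2 were higher and 1 lower without overlap. Their median log2 change was 0.50, which is 0.15 relative to all genes, and the sign of the relative value varied with the settings. TPI1, among the most abundant glycolytic mRNAs, was at 7341, 8035 and 8107 TPM in the siCtrl libraries and 6155, 5497 and 4252 TPM in the siEIF3G libraries (log2 change -0.58, SE 0.16), whereas PFKM, a phosphofructokinase, was at 8.90 to 54.9 TPM with siCtrl and 48.6 to 76.95 TPM with siEIF3G (1.59, SE 0.54) and LDHB at 334 to 996 TPM with siCtrl and 903 to 1952 TPM with siEIF3G (1.10, SE 0.39), both with overlap through siCtrl polysomal 1. MVD and MVK, of the mevalonate pathway, were at 296 to 332 TPM with siCtrl and 177 to 227 TPM with siEIF3G (-0.62, SE 0.20) and 45.5 to 58.1 TPM with siCtrl and 19.9 to 35.99 TPM with siEIF3G (-0.83, SE 0.30), and CYP51A1, a later enzyme of cholesterol synthesis, at 3.77 to 10.7 TPM with siCtrl and 13.8 to 26.6 TPM with siEIF3G (1.16, SE 0.43). 5 of 25 cholesterol genes were lower without overlap and 3 higher. ACLY, which makes acetyl-CoA for lipid synthesis, was at 3.03 to 12.4 TPM with siCtrl and 12.9 to 23.6 TPM with siEIF3G (1.23, SE 0.46), and ACSL3, a fatty acyl-CoA synthetase, at 1.67 to 7.28 TPM with siCtrl and 8.31 to 23.5 TPM with siEIF3G (1.42, SE 0.51). Of 15 tested fatty acid genes, 12 were positive and 3 negative, with a relative median of 0.08, whose sign varied with the settings. Of 20 genes of nucleotide synthesis, 8 were higher without overlap and 0 lower. ATIC and GART, of purine synthesis, were at 16.3 to 66.1 TPM with siCtrl and 89.2 to 186 TPM with siEIF3G (1.93, SE 0.48) and 8.95 to 37.6 TPM with siCtrl and 40.4 to 82.2 TPM with siEIF3G (1.61, SE 0.48), and RRM1, of ribonucleotide reductase, at 2.20 to 5.86 TPM with siCtrl and 8.73 to 20.6 TPM with siEIF3G (1.44, SE 0.43).

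Iron genes were positive as deposited and near the median of all genes, with a relative median of 0.06. It was 0.01 under size factors and 0.28 after quantile normalization. All 12 tested members were above 0, and 7 were higher without overlap. The sum of the 13 listed genes was 1928, 2113 and 2252 TPM with siCtrl and 2986, 2680.2 and 2856 TPM with siEIF3G. FTL, the ferritin light chain, was at 1552, 1797 and 1932 TPM in the siCtrl libraries and 2569.6, 2252 and 2319 TPM in the siEIF3G libraries (log2 change 0.44, SE 0.16), and with size factors its log2 change was -0.028. FTH1, the heavy chain, was at 139 to 173 TPM with siCtrl and 197 to 257 TPM with siEIF3G (0.47, SE 0.21), and NCOA4, the receptor for ferritin turnover, at 2.53 to 7.21 TPM with siCtrl and 10.3 to 18.7 TPM with siEIF3G (1.42, SE 0.42). Ferritin mRNAs carry an iron-responsive element at which translation is controlled. The input values were 0.10 for FTL and 0.13 for FTH1. Of the selenoproteins, TXNRD1 was at 28.1 to 77.1 TPM with siCtrl and 94.3 to 307 TPM with siEIF3G (1.45, SE 0.49), SELENOF at 7.39 to 14.1 TPM with siCtrl and 14.97 to 35.8 TPM with siEIF3G (0.99, SE 0.40) and MSRB1 at 72.03 to 102 TPM with siCtrl and 47.98 to 65.9 TPM with siEIF3G (-0.65, SE 0.25). Of the polyamine genes, ODC1, the first enzyme, was at 69.1 to 94.5 TPM with siCtrl and 98.97 to 169 TPM with siEIF3G (0.72, SE 0.27), its antizyme OAZ1 at 1204 to 1683 TPM with siCtrl and 961 to 1144 TPM with siEIF3G (-0.45, SE 0.18) and SRM, spermidine synthase, at 355 to 478 TPM with siCtrl and 133 to 343 TPM with siEIF3G (-0.78, SE 0.34). ODC1 and OAZ1 thus lay on opposite sides, both without overlap.

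Replication and mitotic genes had medians above that of all genes in polysomal RNA, and histone genes below it. The 37 replication genes had a median log2 change of 0.77, which is 0.42 relative to all genes and 0.24 without siEIF3G polysomal 3, and 13 were higher without overlap and 1 lower. MCM6 and MCM3, of the replicative helicase, were at 2.60 to 9.39 TPM with siCtrl and 16.8 to 31.8 TPM with siEIF3G (1.73, SE 0.45) and 4.39 to 25.96 TPM with siCtrl and 32.8 to 52.2 TPM with siEIF3G (1.96, SE 0.53), and RPA1, which covers single-stranded DNA, at 3.60 to 17.2 TPM with siCtrl and 23.2 to 51.04 TPM with siEIF3G (1.73, SE 0.51). The 45 mitotic genes had a median log2 change of 0.76, which is 0.42 relative to all genes and 0.16 without siEIF3G polysomal 3, and -0.40 in input RNA. 12 of them were higher without overlap and 2 lower, near the share in all genes, and the relative median was 0.16 without siCtrl polysomal 3 and 0.04 with the position on the main axis of deviations as a covariate. RACGAP1 and TPX2, of the spindle, were at 5.74 to 16.1 TPM with siCtrl and 25.2 to 42.1 TPM with siEIF3G (1.57, SE 0.39) and 7.22 to 20.8 TPM with siCtrl and 33.2 to 80.96 TPM with siEIF3G (1.65, SE 0.46), opposite to UBE2C. Replication-dependent histone mRNAs, which end in a stem-loop and mostly lack the poly(A) tail that oligo(dT) beads hold, had a relative median of -0.46. H2BC9 was at 10.3 to 14.3 TPM with siCtrl and 1.98 to 7.08 TPM with siEIF3G (-1.31, SE 0.41) and H2AC6 at 4.28 to 5.98 TPM with siCtrl and 8.38 to 15.6 TPM with siEIF3G (1.01, SE 0.34).

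Growth arrest and death genes took both directions. CDKN1A, the inhibitor p21, was at 136, 175 and 201 TPM in the siCtrl libraries and 98.7, 94.2 and 74.2 TPM in the siEIF3G libraries (log2 change -0.92, SE 0.24). BAX, a pore-forming member of the BCL2 family, was at 317, 391 and 475 TPM in the siCtrl libraries and 277, 260.3 and 186 TPM in the siEIF3G libraries (log2 change -0.71, SE 0.24). Both had no overlap, and the input log2 changes were -0.16 and -0.47. DDB2, a DNA damage sensor, was at 27.6 to 38.05 TPM with siCtrl and 21.1 to 31.3 TPM with siEIF3G (-0.27, SE 0.28), with overlap. MCL1, a survival factor, was at 7.31 to 15.8 TPM with siCtrl and 17.3 to 45.4 TPM with siEIF3G (1.10, SE 0.42), and BCL2L13 at 3.19 to 5.17 TPM with siCtrl and 6.74 to 11.9 TPM with siEIF3G (0.84, SE 0.35). The BCL2 family had a median of -0.18, with 4 members higher and 3 lower without overlap.

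Signalling genes were divided by gene. ARAF, a RAF kinase, was at 27.1 to 36.7 TPM with siCtrl and 6.22 to 21.8 TPM with siEIF3G (-1.07, SE 0.44), next to HRAS on the lower side. SPRY4, an inhibitor of the same pathway, was at 3.28 to 5.93 TPM with siCtrl and 6.65 to 24.1 TPM with siEIF3G (1.29, SE 0.46). The summed RAS pathway list was 1206, 1345 and 1369 TPM with siCtrl and 1184, 1164 and 912 TPM with siEIF3G, with no overlap, whereas 16 of its 22 members were positive, with a median log2 change of 0.52, which is 0.18 relative to all genes. AKT1S1, the mTOR complex 1 inhibitor PRAS40, was at 188 to 266 TPM with siCtrl and 91.3 to 145 TPM with siEIF3G (-0.85, SE 0.26), and RPS6KB2, an S6 kinase, at 86.8 to 122 TPM with siCtrl and 52.8 to 82.3 TPM with siEIF3G (-0.62, SE 0.27). SESN2, also in the mTOR list, was on the higher side at 0.71. Of 24 mTOR genes, 2 were higher and 3 lower without overlap. In sign, 16 were positive and 8 negative, with a median log2 change of 0.20, which is -0.15 relative to all genes.

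Nuclear pore genes and most vesicle coat genes were higher, while RNA polymerase II, proton pump and autophagy genes took both directions. All 38 nuclear pore and transport genes were positive and 19 were higher without overlap, with a median log2 change of 0.97, which is 0.62 relative to all genes and 0.53 without siEIF3G polysomal 3. NUP107 and NUP88, of the pore, were at 2.41 to 4.48 TPM with siCtrl and 7.73 to 17.3 TPM with siEIF3G (1.48, SE 0.38) and 3.55 to 9.29 TPM with siCtrl and 16.6 to 37.3 TPM with siEIF3G (1.62, SE 0.43), and IPO5, an importin, at 3.25 to 8.75 TPM with siCtrl and 14.2 to 29.2 TPM with siEIF3G (1.57, SE 0.41). Of 43 splicing factors, 15 were higher and 2 lower without overlap, and their relative median was 0.48, or 0.22 without siCtrl polysomal 3 and 0.21 without siEIF3G polysomal 3. HNRNPU was at 4.40 to 11.8 TPM with siCtrl and 20.4 to 76.1 TPM with siEIF3G (2.01, SE 0.51), HNRNPK at 34.7 to 172 TPM with siCtrl and 199 to 303 TPM with siEIF3G (1.57, SE 0.48) and EFTUD2, a spliceosomal GTPase, at 12.7 to 48.8 TPM with siCtrl and 54.2 to 85.8 TPM with siEIF3G (1.64, SE 0.45). POLR2B, the second largest subunit of RNA polymerase II, was at 1.34 to 3.30 TPM with siCtrl and 7.12 to 14.9 TPM with siEIF3G (1.60, SE 0.39), and the small subunits POLR2F and POLR2H at 64.3 to 90.2 TPM with siCtrl and 40.5 to 51.3 TPM with siEIF3G (-0.69, SE 0.25) and 252 to 323 TPM with siCtrl and 181 to 205 TPM with siEIF3G (-0.55, SE 0.20). Of 20 RNA polymerase II genes and general factors, 6 were higher and 5 lower without overlap, and the relative median of 0.07 took both signs over the settings. The sum of that list was lower, at 2622, 2854 and 3075 TPM with siCtrl and 2392, 2212 and 2409.8 TPM with siEIF3G. COPA and COPB2, of the COPI coat, were at 1.16 to 3.25 TPM with siCtrl and 6.34 to 17.7 TPM with siEIF3G (1.83, SE 0.43) and 2.97 to 7.10 TPM with siCtrl and 12.1 to 30.8 TPM with siEIF3G (1.74, SE 0.43), and SEC23B, of COPII, at 2.58 to 7.95 TPM with siCtrl and 13.1 to 19.6 TPM with siEIF3G (1.52, SE 0.40). 15 of 31 coat and Golgi genes were higher without overlap and 3 lower. The list had a median log2 change of 0.91, which is 0.57 relative to all genes and 0.56 without siEIF3G polysomal 3. Yet the sum of the 33 in the table was lower in every knockdown library, at 2583, 2614 and 2760.0 against 2449, 2438 and 2391 TPM. ATP6V1A and ATP6V0C, of the proton pump, were at 1.5 to 3.33 TPM with siCtrl and 5.30 to 9.67 TPM with siEIF3G (1.19, SE 0.36) and 339 to 442 TPM with siCtrl and 159.6 to 276 TPM with siEIF3G (-0.77, SE 0.25). In autophagy, ATG7 was at 7.04 to 22.8 TPM with siCtrl and 26.1 to 45.1 TPM with siEIF3G (1.48, SE 0.45), NBR1 at 1.01 to 3.75 TPM with siCtrl and 5.68 to 10.8 TPM with siEIF3G (1.24, SE 0.42) and MAP1LC3A at 47.6 to 66.1 TPM with siCtrl and 30.2 to 36.2 TPM with siEIF3G (-0.78, SE 0.26).

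Matrix and mesenchymal genes were higher as deposited in every member tested. 10 of 18 had no overlap, and the list had a median log2 change of 0.83. Relative to all genes it was 0.48, or 0.55 without siEIF3G polysomal 3 and 0.32 without siCtrl polysomal 3. The sum of the 30 listed genes in the table was 1038, 756 and 479.8 TPM with siCtrl and 1689, 1356 and 2645 TPM with siEIF3G. VIM, vimentin, was at 599.7, 450.1 and 265 TPM in the siCtrl libraries and 1050.4, 718 and 1909 TPM in the siEIF3G libraries (log2 change 1.44, SE 0.38), and AMOTL2, a YAP target, at 5.56 to 12.4 TPM with siCtrl and 18.9 to 25.9 TPM with siEIF3G (1.29, SE 0.35). CFL1, the actin-severing cofilin, was at 3472, 3592 and 4354 TPM in the siCtrl libraries and 2829.8, 2359.6 and 1789.6 TPM in the siEIF3G libraries (log2 change -0.73, SE 0.19), opposite to ACTN4 and ITGB1. Tubulin mRNAs, whose level is controlled by free tubulin during translation, had a median of -0.06 and overlapped for TUBA1A, TUBB3 and TUBB4A. PGK1, often used as a housekeeping reference, was at 58.6 to 354 TPM with siCtrl and 254 to 359 TPM with siEIF3G (1.26, SE 0.54), with overlap through siCtrl polysomal 1.

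**Figure D4:**
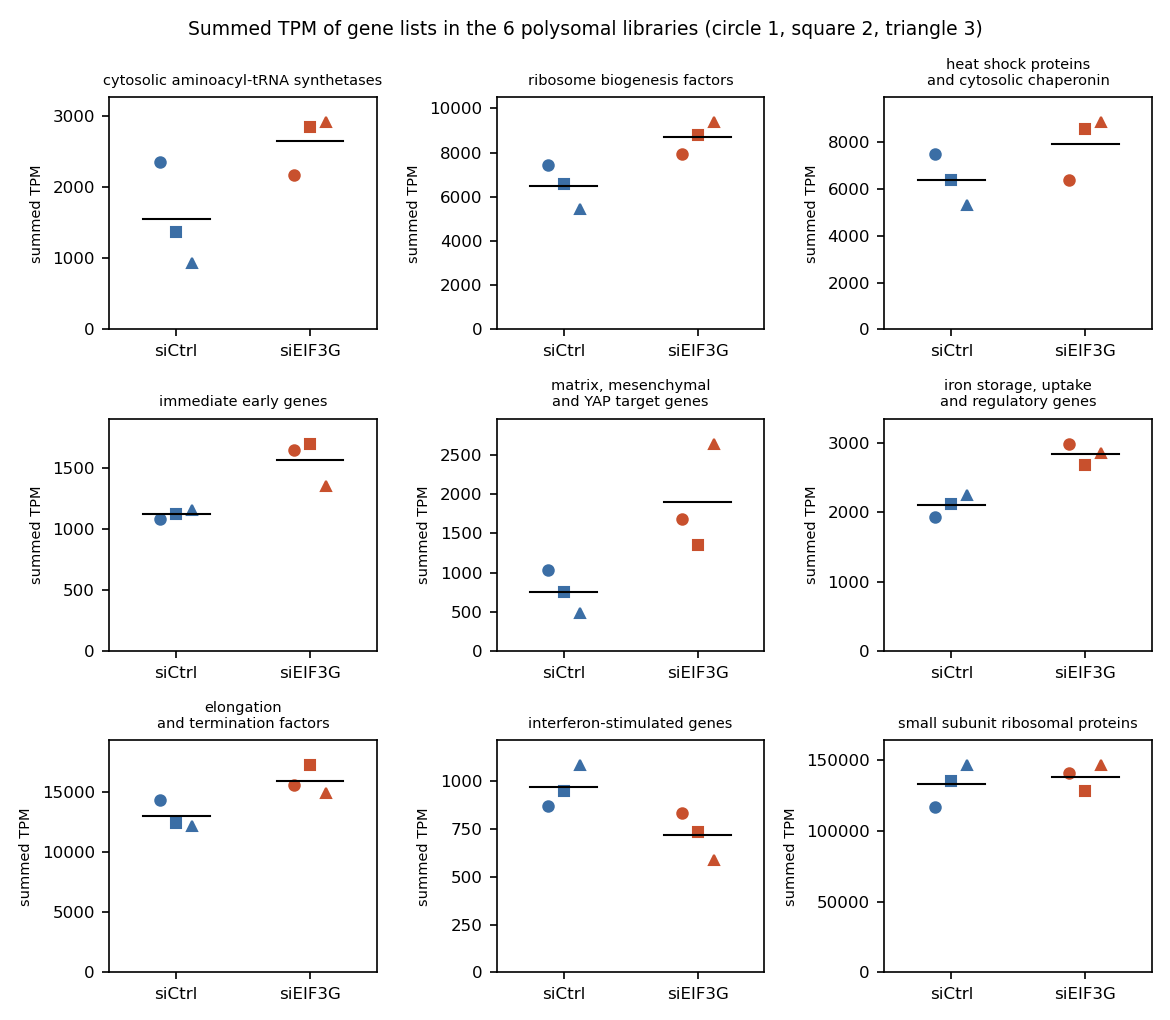
Summed TPM of 9 gene lists in the siCtrl (blue) and siEIF3G (orange) polysomal libraries, each axis from 0, with circles, squares and triangles for libraries 1, 2 and 3 and a line at the mean. Ribosome biogenesis, immediate early, matrix, iron and elongation lists lie higher and the interferon-stimulated genes lower in all 3 siEIF3G libraries, while the synthetases, chaperones and small subunit ribosomal proteins overlap.

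Over all lists of at least 5 members, the summed TPM did not overlap in 5 lists higher and 5 lower. Sums cover every listed gene in the deposited table, tested or not. The lower ones included the interferon-stimulated genes and the RNA polymerase II, vesicle coat and RAS pathway lists. A sum follows its most abundant members and a median counts all alike, so a list with a high median and a low sum, as that of the vesicle coats, holds abundant members that were lower and scarce members that were higher.

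With the values as deposited, long genes were higher and short genes were not. When the 9372 genes with a RefSeq position (GRCh38.p14) were ordered by genomic span, the median log2 change was -0.09 in the shortest quintile (median span 4859 bases), then 0.15, 0.38, 0.55 and 0.59 in the longest (122355 bases). With size factors the shortest and longest quintiles had medians of -0.52 and 0.27, and with quantile normalization -0.22 and 0.19. As deposited, the share without overlap on the higher side went from 11.2% to 30.1%, and on the lower side from 18.4% to 1.55%. Without siEIF3G polysomal 3 the polysomal medians went from -0.02 to 0.35. In input RNA the quintile medians stayed between -0.05 and -0.004. These include siCtrl input 1 and siEIF3G input 2, which stood apart in the ranked higher genes and lie in opposite groups. Whether the order by span differs between the fractions was not tested. Level and span were linked, with 749 of the longest quintile of genes in the quintile of lowest mean TPM and 58 in the highest. By level the median log2 change was 0.45, 0.56, 0.49, 0.21 and -0.11 from the lowest to the highest quintile. Within each quintile of mean TPM the longest genes still had a higher median than the shortest, 0.53 against 0.12 in the lowest and 0.16 against -0.16 in the highest. Span counts introns, and the length of the mature mRNA was not used here.

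The same order was seen inside the pathways. In 38 of 45 lists with at least 10 members, the longer members had a higher median than the shorter ones, and in 36 without siEIF3G polysomal 3. Vesicle coat genes had 0.29 for the shorter and 1.33 for the longer members, RNA polymerase II genes -0.27 and 0.62, and mitotic genes 0.20 and 0.96. In each of these lists the longer members were also scarcer. The median level of the shorter and longer members was 19.0 and 7.61 TPM, 173 and 9.19 TPM, and 41.6 and 8.23 TPM. Both ribosomal protein lists and the matrix genes were among the 7 lists in the other order. This division of lists was made after the values were seen and was not matched for level, so it does not separate span from level. Chromosome 19, rich in short genes (median span 14441 bases), had the lowest median, -0.15 over 735 genes, and chromosome 13 (49470 bases) the highest, 0.60 over 122 genes. EIF3G and THOP1 are both on chromosome 19. Promoter base composition made less difference, with medians of 0.43 in the quintile of lowest G and C content and 0.26 in the highest. What sets the order by span was not tested.

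**Figure D5:**
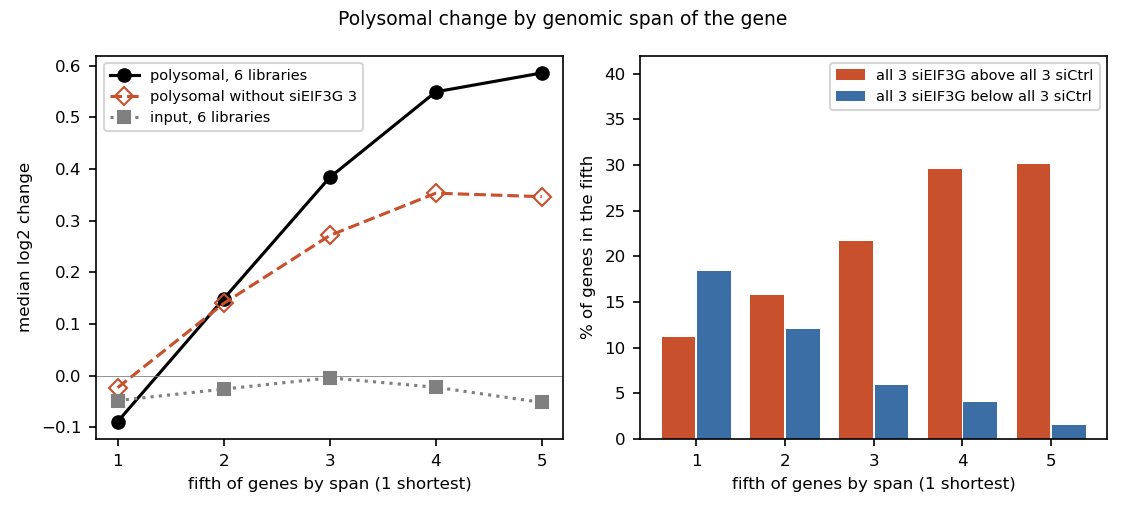
Left, median log2 change by quintile of genomic span, from the shortest (1) to the longest (5), in polysomal RNA with all 6 libraries, without siEIF3G polysomal 3, and in input RNA; right, the percentage of genes in each quintile whose groups do not overlap, higher (orange) or lower (blue). The polysomal median goes from -0.09 to 0.59 and the input median, with siCtrl input 1 and siEIF3G input 2 included, stays near 0.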

How the data were processed

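RNA from the polysomal fraction of H1299 cells was sequenced in 6 libraries, and input RNA in 6 more. The authors deposited a table of TPM per gene and library. RSEM 1.3.1 and the genome build GRCh38.p13 were used, per the submitters' processing notes; no source used here names the aligner or the annotation. TPM keep no read counts, so the depth is unknown and no counting interval is given. All 12 value columns were matched to samples by their names.

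Values were tested as log2(TPM + 1), which understates the change of low genes, with limma 3.58.1 (trend, R 4.3.3). The 6 polysomal libraries were fitted alone, leaving 4 residual degrees of freedom. Benjamini-Hochberg adjustment covered all 9496 genes (threshold 0.05). The difference from input was the interaction in a fit of 12 libraries. Groups that do not overlap were counted as a description. No value was rescaled unless stated. The fit was also run on simulated data with independent noise, a smaller spread than here and large planted changes. That setting is easier than these libraries and does not show how the fit performs on them. Named genes are EIF3G, the ranked genes in each direction (up to 12, by unadjusted p where none was called, mean of at least 10 TPM), and up to 3 members of each of 49 lists by smallest p (mean of at least 5 TPM). Some of these genes, and 1 list, are not reported here. Members, lists and settings were chosen with earlier results of these data known. Symbols of 9372 genes matched RefSeq (GRCh38.p14) for span. Alternatives were the pseudocount, the filter, the scaling, the moderation, the libraries fitted, a replicate block, a covariate and each library left out.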

Additional observations from a re-analysis of the deposited data

How the results depend on the processing

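EIF3G was called lower in all 18 alternatives, at -3.70 to -4.22 with each library left out in turn. The count of called genes was 0 higher and 1 lower in most settings. It was 63 higher and 43 lower with size factors, 2 lower with quantile normalization and 2 lower in the fit of 12 libraries, and the range with each library left out was 0 to 33 higher and 1 to 3 lower. The 33 and 3 came from leaving out siCtrl polysomal 1. Genes without overlap were 1185 higher and 1769 lower with size factors, 1069 and 1284 with quantile normalization, and 1110 higher with the minimum raised to 5 TPM, where fewer genes were tested. With each library left out they were 2120 to 3751 higher and 884 to 1415 lower, where fewer libraries make overlap rarer by construction. The cause of the other differences was not tested.

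Some named genes with small changes took the other sign. With size factors these were FTL (-0.028), RPL12 (-0.0505), ACTA2 (-0.0500), CD68 (-0.265) and KRT18 (-0.417). ACTA2 was at -0.173 with quantile normalization, and KRT8 at 0.458 with each library's position on the main axis of deviations as a covariate. With each library left out, KRT8 ranged from -0.553 to 0.245, KRT18 from -0.259 to 0.410 and CD68 from -0.013 to 0.559. Of 152 named genes, 28 were called with size factors, against 63 (0.663%) higher and 43 (0.453%) lower of all 9496 genes. The named genes were chosen largely by small p in these same data, so a higher share among them was built in.

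Replicate numbers did not pair the libraries. Same-numbered libraries had correlations of their deviations of -0.11, -0.64 and -0.25, and 0 of 6 correlated best with their own number. The fit with the replicate number as a block called 168 genes higher and 14 lower of all 9496. It called 63 of the named genes, which were chosen largely by small p. The depth is unknown.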
